A study of Mus musculus with 10 samples.

Results

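The 9 genes described here encode acidic or Gla-containing proteins of the bone matrix, and they were followed in MC3T3-E1 cells (preosteoblasts derived from the calvaria of a mouse) after culture with β-ecdysterone, a plant sterol. The genes were taken by name from the deposited table: Spp1, Ibsp, Dmp1, Mepe and Dspp encode the 5 SIBLING proteins, and Bglap, Bglap2, Bglap3 and Mgp encode Gla proteins. All 9 had a row among the 29583 features of the table, which holds 22036 Ensembl genes and 7547 newly assembled loci. The cells of the third generation, given in the labels as C57BL/6 and newborn, were grown in standard medium. β-ecdysterone was added at 100, 150 or 200 μM, or left out (0 μM), and polyadenylated RNA was sequenced after 5 or 10 days. There was 1 library for each dose and day, so the 6 treated libraries served as replicates of treated cells and were compared with the 2 libraries at 0 μM, 1 per day. The spread between replicates therefore includes any difference between doses, and since no label names separate cultures, the p-values measure only the spread between these libraries. The labels give n = 3 for the RNA extraction without saying whether 3 cultures were pooled into 1 library. A further 2 libraries, A-5 and B-4, were labelled untreated without a time, and they entered no comparison other than the alternatives named as such. The source field of the labels names bone marrow mesenchymal stem cells, while every title names MC3T3-E1.

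Library totals ranged from 27108562 to 58218009 counts over the 8 libraries with a time. Totals above 40000000 counts were found at 0 and 150 μM on day 5 and at 150 and 200 μM on day 10, so dose and depth were not independent. A level below is given in CPM (counts scaled to a common library size) after TMM normalisation, which compares 1 gene between libraries, or in FPKM, which is per length and compares genes with each other. A gene with 3 counts, the floor used here, corresponds to between 0.0515 and 0.111 CPM before TMM normalisation, depending on the library. Intervals and floors cover counting error only. Osteoblast markers were present at 0 μM, with a mean of 9356 CPM of Col1a1 and 90.9 CPM of Runx2, but Alpl, the bone alkaline phosphatase, had between 0 and 2 counts there.

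SIBLING proteins (small integrin-binding ligand, N-linked glycoproteins) are secreted, acidic and heavily phosphorylated. They carry an RGD sequence that integrins bind, and their acidic stretches bind calcium and the mineral of bone and dentin. Gla proteins carry glutamate residues that a vitamin K-dependent carboxylase converts to γ-carboxyglutamate, a residue that binds calcium. Osteocalcin, the Gla protein of bone, is a classical late marker of osteoblasts, whereas matrix Gla protein is best known for keeping cartilage and vessel walls free of mineral. In these bulk libraries, a lower share of cells that express a gene cannot be told apart from less RNA of it per cell.

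The members lie in 3 places of the genome (GENCODE M21, build GRCm38, matched by Ensembl identifier). The 5 SIBLING genes follow each other on the plus strand of chromosome 5 within 270339 bases. In order they are Dspp (ENSMUSG00000053268, chr5:104170712-104180127), Dmp1 (ENSMUSG00000029307, chr5:104202613-104214102), Ibsp (ENSMUSG00000029306, chr5:104299171-104311469), Mepe (ENSMUSG00000053863, chr5:104325329-104338611) and Spp1 (ENSMUSG00000029304, chr5:104435118-104441050). The 3 osteocalcin genes lie on the minus strand of chromosome 3 within 15849 bases, as Bglap3 (ENSMUSG00000074489, chr3:88368616-88372743), Bglap2 (ENSMUSG00000074486, chr3:88377736-88378699) and Bglap (ENSMUSG00000074483, chr3:88383501-88384464). Mgp (ENSMUSG00000030218, chr6:136872435-136875823) stands alone on the minus strand of chromosome 6. Only Spp1 overlapped another annotated gene, the unverified Gm42793 on the same strand, over 1252 bases.

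RefSeq (GRCm38.p6) gave a promoter window of 300 bases, from 250 before to 50 after a transcription start, for 6 of the 9 members, which leaves out Bglap2, Dspp and Mgp. The windows of Ibsp, Mepe and Dmp1 are shown because these are SIBLING genes that changed with treatment, and that of Bglap because it is the reference gene for osteocalcin. For each gene the start nearest the GENCODE start was used, and that of Ibsp lies 116 bases downstream of it. The windows are chr5:104299037-104299336 (plus strand) for Ibsp, chr5:104325079-104325378 (plus strand) for Mepe, chr5:104202367-104202666 (plus strand) for Dmp1 and chr3:88384417-88384716 (minus strand) for Bglap. They are printed 5′ to 3′ on the gene's own strand, with the motifs that were found in capitals.
Ibsp: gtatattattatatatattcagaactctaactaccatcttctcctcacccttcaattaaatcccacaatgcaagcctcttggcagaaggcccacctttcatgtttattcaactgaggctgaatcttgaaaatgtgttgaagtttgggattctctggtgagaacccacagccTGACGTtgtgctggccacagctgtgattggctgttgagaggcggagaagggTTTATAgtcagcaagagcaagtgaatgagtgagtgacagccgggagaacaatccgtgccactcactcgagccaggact
Mepe: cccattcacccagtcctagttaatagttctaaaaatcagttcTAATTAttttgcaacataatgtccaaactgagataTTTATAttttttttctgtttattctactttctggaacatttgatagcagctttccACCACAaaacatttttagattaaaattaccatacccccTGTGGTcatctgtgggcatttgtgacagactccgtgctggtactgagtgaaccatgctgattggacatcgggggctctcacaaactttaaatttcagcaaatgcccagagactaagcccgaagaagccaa
Dmp1: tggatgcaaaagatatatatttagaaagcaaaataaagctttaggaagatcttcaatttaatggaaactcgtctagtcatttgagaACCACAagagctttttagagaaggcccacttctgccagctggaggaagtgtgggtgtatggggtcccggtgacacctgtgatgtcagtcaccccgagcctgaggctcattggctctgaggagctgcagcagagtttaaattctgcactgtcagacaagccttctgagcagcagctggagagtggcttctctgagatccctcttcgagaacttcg
Bglap: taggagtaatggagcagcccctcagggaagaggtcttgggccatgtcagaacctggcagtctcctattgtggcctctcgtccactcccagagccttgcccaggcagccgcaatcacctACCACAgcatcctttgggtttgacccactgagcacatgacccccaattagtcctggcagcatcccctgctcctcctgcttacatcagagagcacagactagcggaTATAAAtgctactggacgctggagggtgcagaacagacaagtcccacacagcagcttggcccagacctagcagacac

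The 7 motifs searched on both strands were ACCACA (Runx factors), TAATTA (Dlx and Msx homeodomains), TGANTCA (AP-1), GGGCGG (Sp factors), CACGTG (E-box), TGACGT (core of the cAMP response element) and TATAAA (the core promoter box that bears its first letters). ACCACA stood in 4 of the 6 windows, those of Spp1, Dmp1, Mepe and Bglap, against 16.8% of all 32851 windows of this length in RefSeq. The Mepe window held it on both strands. TATAAA stood in 4 of the 6 windows, against 13.6% of all windows. It began 27 bases before the start of Bglap, and in Ibsp it was on the reverse strand, 28 bases before the start. In Spp1 and Mepe it stood farther off, 211 and 173 bases before the start, on the reverse strand in Mepe. An inverted TATA box is a known feature of the Ibsp promoter. TGACGT was found in Ibsp only (7.51% of all windows) and TAATTA in Mepe only (5.29%), and none of the 6 windows held TGANTCA (7.81%), GGGCGG (35.7%) or CACGTG (7.15%). A match shows only that these letters stand in the window.

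Spp1 (osteopontin, a ligand of integrins and CD44) and Mgp were the 2 members with the highest FPKM in every library. At 0 μM, Spp1 had 1084 FPKM on day 5 and 1095 FPKM on day 10, and Mgp had 402 FPKM and 314 FPKM. Every other member was below 2.5 FPKM at 0 μM. By mean level at 0 μM, Mgp was followed by Bglap2, Dmp1, Bglap, Ibsp, Bglap3, Mepe and Dspp, and the 2 libraries overlapped between Dmp1 and Bglap and between Mepe and Dspp. In treated cells the order changed on both days to Mgp, Spp1, Ibsp, Bglap2, Bglap, Mepe, Dmp1, Bglap3 and Dspp. The ranges of Bglap2 and Bglap, and of Mepe and Dmp1, overlapped on both days, and those of Dmp1 and Bglap3 on day 5.

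**Figure D1:**
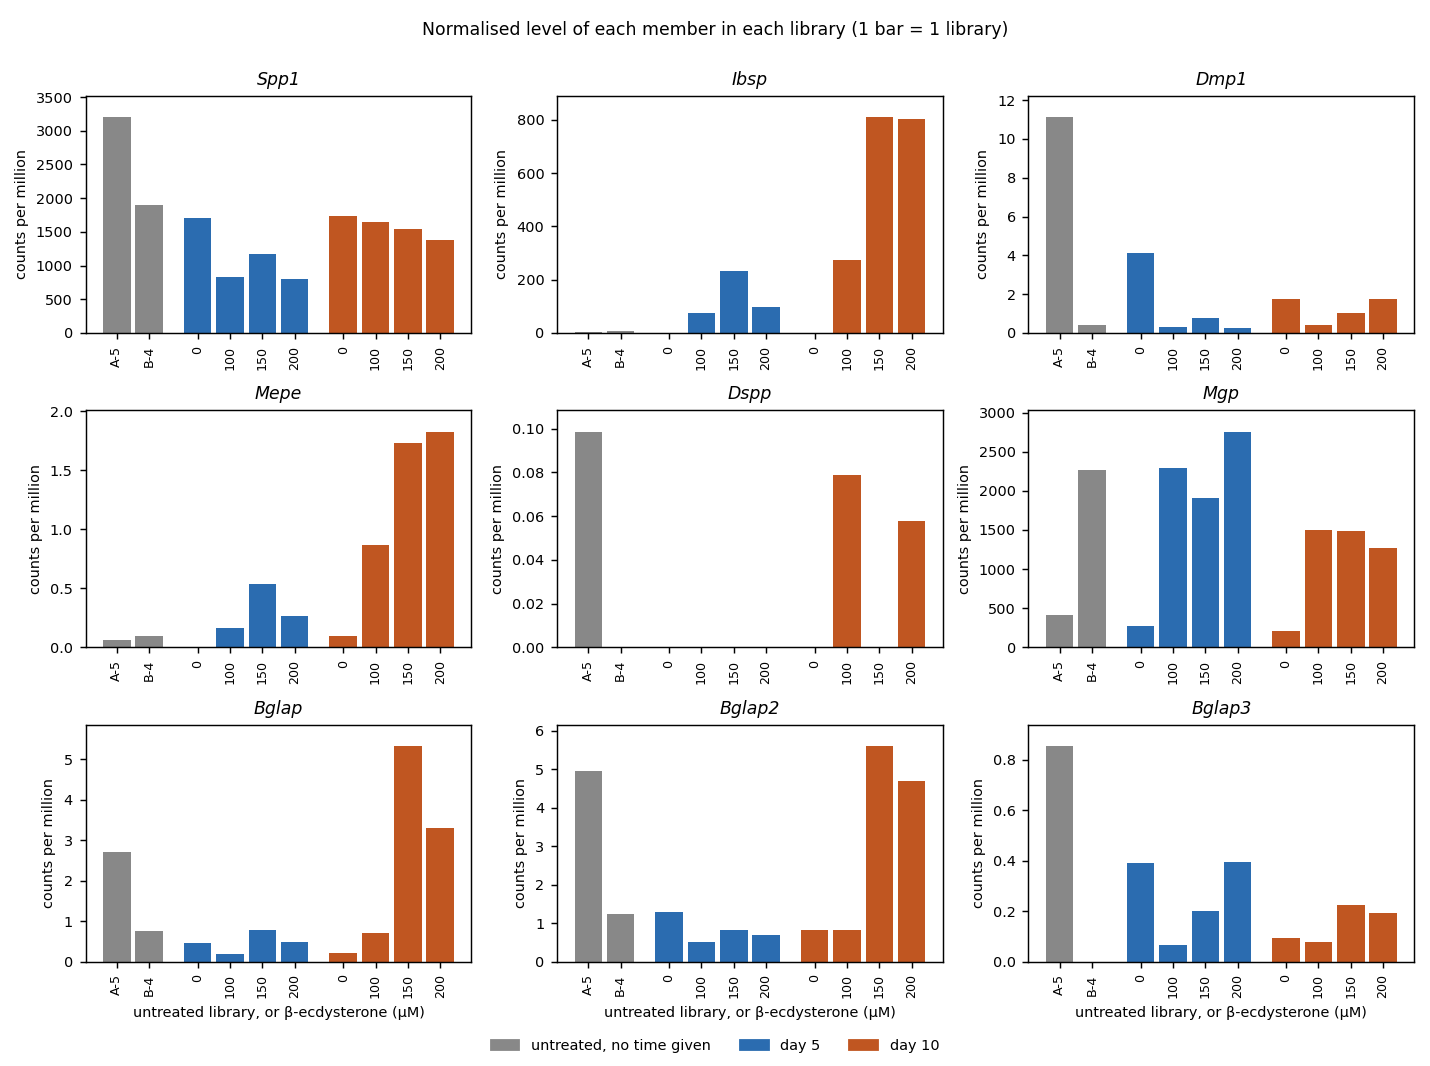
CPM (linear axes that start at 0 and differ between panels) of the 9 members, with 1 bar per library: untreated A-5 and B-4 in grey, day 5 in blue and day 10 in orange, each with the β-ecdysterone dose in μM under its bar. Ibsp and Mgp were higher in all 6 treated libraries than at 0 μM, while Spp1 and Dmp1 were lower in all 6 than at 0 μM on the same day.

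The first comparison asked which of these genes differ between treated cells and cells at 0 μM. Of the 9 members, 8 had enough counts to be tested by edgeR's quasi-likelihood test, and 3 rose (Ibsp, Mepe and Mgp) while 1 fell (Dmp1). A call needed a change of more than 1 on the log2 scale together with an adjusted p (Benjamini-Hochberg) below 0.05. Over all 16794 features tested, 13.4% rose and 5.98% fell by the same rule. Mepe, with 0 and 3 counts at 0 μM, had enough counts to be tested only through its treated libraries, where it was high. The median log2 fold change was 0.96 over the 8 members and 0.05 over all features.

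Ibsp, bone sialoprotein, a SIBLING protein that nucleates mineral, had the largest log2 fold change of the 8. At 0 μM it was nearly silent, with 34 counts (0.668 CPM) on day 5 and 27 (0.854 CPM) on day 10. In treated cells on day 5 it stood at 74.0 CPM at 100 μM, 234 CPM at 150 μM and 96.5 CPM at 200 μM. On day 10 it stood at 276 CPM, 810 CPM and 803 CPM at these doses. All 6 treated libraries lay above both libraries at 0 μM. The log2 fold change was 8.61 (SE 0.88, adjusted p = 6.3e-05, edgeR), from a mean of 0.761 CPM (SD 0.131, n = 2) to 382 CPM (SD 337, n = 6). By FPKM, Ibsp was the 13217th feature of the table at 0 μM on day 5 and the 12588th at 0 μM on day 10. It ranked between 418th and 1840th in the treated libraries of day 5, and between 124th and 365th in those of day 10.

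Mepe, matrix extracellular phosphoglycoprotein, is known from osteocytes and as an inhibitor of mineralization through its acidic carboxy-terminal peptide. Without β-ecdysterone, 0 reads of it were counted on day 5 and 3 on day 10. Treated cells had 5, 32 and 8 counts at 100, 150 and 200 μM on day 5, and 22, 92 and 95 counts on day 10. Mepe thus stayed a rare transcript, at most 1.83 CPM, but each treated library lay above both libraries at 0 μM. Pooled by group, 254 counts in treated cells against 3 at 0 μM gave a ratio of 26.6 per library total (exact 95% interval 8.99 to 130, counting error only). It was called higher by edgeR (adjusted p = 0.00175), and its fitted fold change, which depends on the prior count, is not used as a size.

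Dmp1, dentin matrix protein, the SIBLING protein of osteocytes, moved the other way. At 0 μM its level was 4.11 CPM (209 counts) on day 5 and 1.77 CPM (56 counts) on day 10. In treated cells it stood at 0.302, 0.787 and 0.264 CPM at 100, 150 and 200 μM on day 5, and at 0.394, 1.03 and 1.73 CPM on day 10. The highest treated library, at 200 μM on day 10, was just under the lower library at 0 μM. Dmp1 fell by 2.10 on the log2 scale (SE 0.61, adjusted p = 0.0189, edgeR). The call rested on the day 5 libraries. With day as a covariate, a fit without 1 library at 0 μM compares only within the other day. Without that of day 5 the log2 fold change was -0.71, and without that of day 10 it was -3.11 (edgeR).

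Spp1 was lower in each treated library than at 0 μM on the same day. It stood at 1711 CPM at 0 μM on day 5 and at 1729 CPM at 0 μM on day 10. The treated libraries of day 5 held 823, 1166 and 803 CPM at 100, 150 and 200 μM, and those of day 10 held 1652, 1546 and 1373 CPM. The distance from 0 μM was thus wide on day 5 and narrow on day 10. The log2 fold change over both days was -0.56 (SE 0.18, adjusted p = 0.0325, edgeR), which did not reach the fold limit. Without the day 5 library at 0 μM, which leaves only the comparison within day 10, it was -0.19 (edgeR). Dspp, the precursor of dentin sialoprotein and dentin phosphoprotein, was read 2 times at 100 μM and 3 times at 200 μM on day 10, and all other libraries with a time held 0 counts. At or under the floor in each, it was not tested, and a difference could not be seen at this depth.

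Mgp, the inhibitor of soft-tissue mineralization, rose. It stood at 272 CPM at 0 μM on day 5 and at 213 CPM at 0 μM on day 10. In treated cells it stood at 2292, 1903 and 2754 CPM at 100, 150 and 200 μM on day 5, and at 1501, 1483 and 1274 CPM on day 10. The lowest treated library, at 200 μM on day 10, lay above both libraries at 0 μM. The log2 fold change was 2.90 (SE 0.19, adjusted p = 4.4e-06, edgeR), or 7.48-fold. The call depended on the control libraries: B-4 held 2262 CPM of Mgp, within the range of treated cells, and A-5 held 418 CPM. With these untreated libraries in place of 0 μM the log2 fold change was 0.47 (adjusted p = 0.570, edgeR), and with them added it was 1.23 (adjusted p = 0.161, edgeR). Under the same replacement Ibsp was still called at 6.06 (adjusted p = 0.0137) and Dmp1 at -2.88 (adjusted p = 0.0470), Mepe was no longer called (adjusted p = 0.0645), and Spp1 was called lower at -1.06 (adjusted p = 0.0378, all edgeR). The 2 untreated libraries were far apart in Dmp1, with 11.1 CPM in A-5 and 0.431 CPM in B-4, and the latter lay within the range of treated cells.

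**Figure D2:**
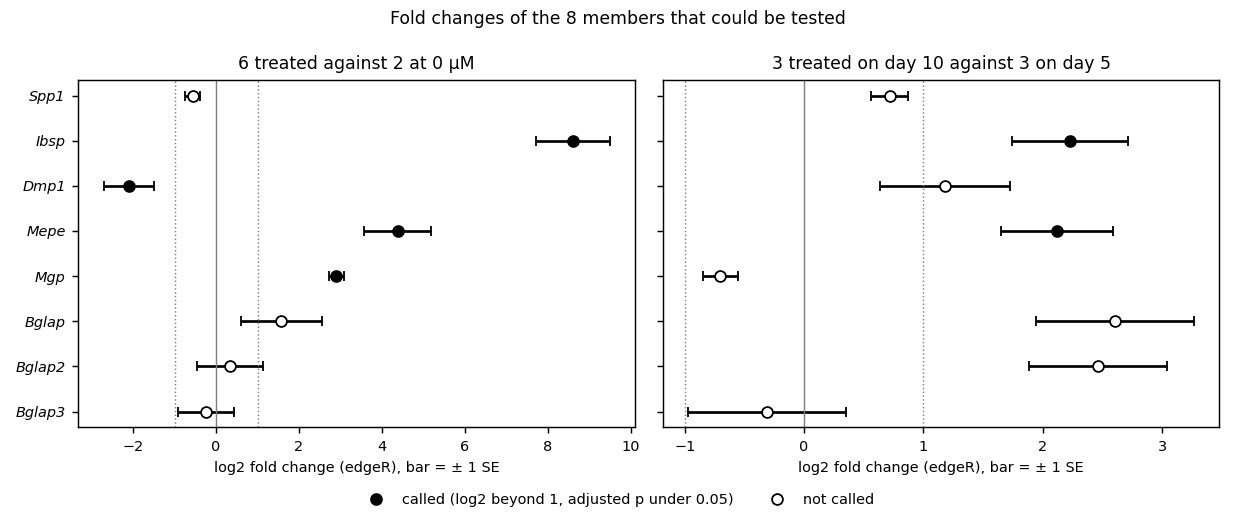
Log2 fold changes from edgeR (points) with bars of 1 standard error for the 8 members tested, as treated libraries against 0 μM on the left and day 10 against day 5 within treated cells on the right. Filled points passed the limits of log2 1 (dotted lines) and adjusted p 0.05: Ibsp, Mepe, Mgp and Dmp1 on the left, Ibsp and Mepe on the right. The fitted value of Mepe on the left is set against 3 counts at 0 μM and is not a measure of size.

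The osteocalcin genes were rare transcripts, and their 3 copies are hard to separate. Over the aligned bases of 1 coding transcript each, Bglap and Bglap2 were 98.6% identical, Bglap and Bglap3 96.1%, and Bglap2 and Bglap3 97.7%. Of all stretches of 50 bases in the Bglap transcript, 74.7% also occur in that of Bglap2 and 20.5% in that of Bglap3, so the split of reads between the copies is uncertain. At 0 μM the 3 copies together held 109 counts on day 5 and 36 on day 10. In treated cells they had 23, 108 and 48 counts at 100, 150 and 200 μM on day 5, and 41, 593 and 426 counts on day 10. Most osteocalcin counts of treated cells thus came from the libraries at 150 and 200 μM on day 10.

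Bglap, osteocalcin itself, stood at 0.472 CPM at 0 μM on day 5 and at 0.221 CPM at 0 μM on day 10. It stood at 0.201, 0.787 and 0.495 CPM at 100, 150 and 200 μM on day 5, and at 0.709, 5.32 and 3.31 CPM on day 10. It was above 0 μM of the same day in 5 of 6 treated libraries, and the groups overlapped. Its log2 fold change of 1.57 (SE 0.97) did not pass the test (adjusted p = 0.216, edgeR). It was called with depth class as a covariate, at 1.56 (adjusted p = 0.0234, edgeR). Without the day 5 library at 0 μM, which leaves only the comparison within day 10, it was at 3.82. Without that of day 10, which leaves only day 5, it was at 0.12. With the untreated libraries as controls it was at 0.090 (adjusted p = 0.962, edgeR). The size thus differed between the days and with the untreated libraries as controls. Bglap2, the second osteocalcin copy, stood at 1.28 and 0.822 CPM at 0 μM, at 0.503, 0.821 and 0.693 CPM in treated cells on day 5, and at 0.827, 5.60 and 4.69 CPM on day 10. It was above 0 μM of the same day in 3 of 6 libraries, all on day 10, and its log2 fold change was 0.34 (SE 0.79, adjusted p = 0.751, edgeR). Bglap3, the osteocalcin-related copy, had between 2 and 20 counts per library, with a log2 fold change of -0.25 (SE 0.68, adjusted p = 0.785, edgeR). The sign of the Bglap2 and Bglap3 values changed with the library left out.

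The share of the counts that went to Bglap among the 3 copies was 22.0% at 0 μM on day 5 (exact Clopper-Pearson 95% interval 14.6% to 31.0%) and 19.4% at 0 μM on day 10 (8.19% to 36.0%). On day 10 in treated cells it was 43.9% at 100 μM (28.5% to 60.3%), 47.7% at 150 μM (43.6% to 51.8%) and 40.4% at 200 μM (35.7% to 45.2%). The interval at 150 μM on day 10 lay above that at 0 μM on the same day, and those at 100 and 200 μM overlapped it. On day 5 the share was 26.1% at 100 μM (10.2% to 48.4%), 43.5% at 150 μM (34.0% to 53.4%) and 31.3% at 200 μM (18.7% to 46.3%), and again only the interval at 150 μM lay above that at 0 μM. The untreated libraries had 31.7% (26.0% to 37.7%) in A-5 and 38.3% (26.1% to 51.8%) in B-4.

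**Figure D3:**
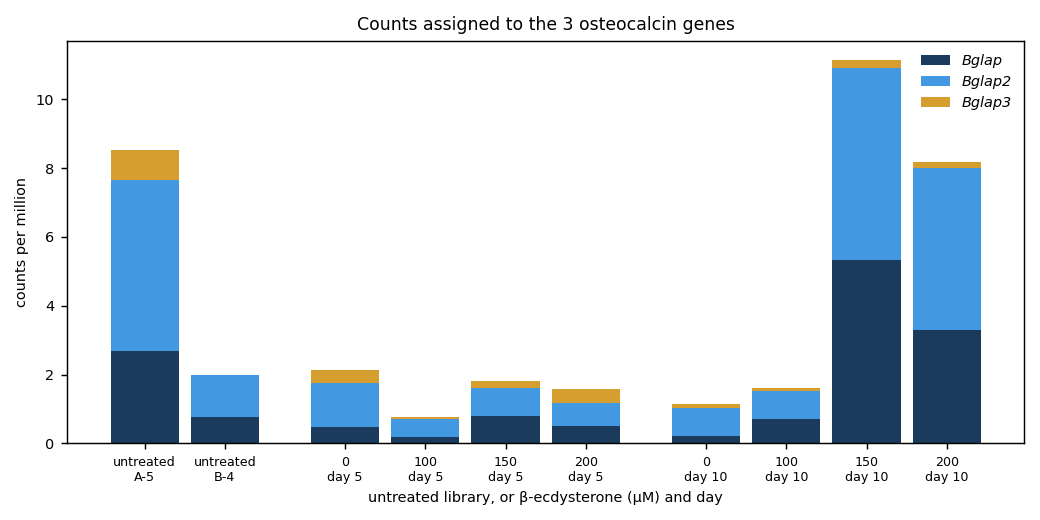
CPM assigned to Bglap, Bglap2 and Bglap3, stacked, in each of the 10 libraries. The stacks at 150 and 200 μM on day 10 and that of untreated A-5 are the 3 highest, and the other 7 libraries lie below 3 CPM.

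Because FPKM is per length, the members can also be set against each other within a library. Ibsp made up 0.0269% of the FPKM sum of the 5 SIBLING genes at 0 μM on day 5 and 0.0339% on day 10. It made up 5.86%, 12.2% and 7.68% of that sum at 100, 150 and 200 μM on day 5, and 10.3%, 26.6% and 28.9% on day 10. The rest was nearly all Spp1. Spp1 exceeded Ibsp by 3715-fold and 2948-fold in FPKM at 0 μM, by between 7.21-fold and 16.1-fold in treated cells on day 5, and by between 2.46-fold and 8.66-fold on day 10. Mgp was at 0.371 and 0.287 of the FPKM of Spp1 at 0 μM, at between 3.79 and 7.96 times Spp1 in treated cells on day 5, and at between 2.11 and 2.23 times on day 10. The 9 members together took 0.207% and 0.197% of all counts at 0 μM and between 0.319% and 0.374% in treated cells.

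**Figure D4:**
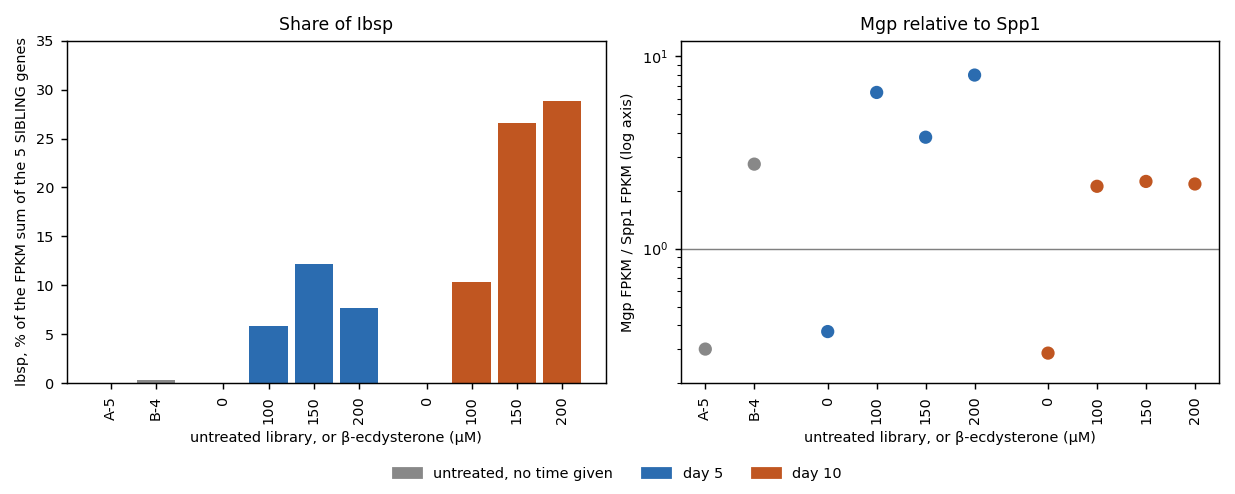
Left, the percent of the FPKM sum of Spp1, Ibsp, Dmp1, Mepe and Dspp that is Ibsp, and right, the ratio of Mgp to Spp1 in FPKM on a log axis with a line at 1, with 1 bar or point per library. Ibsp reached 28.9% at 200 μM on day 10, and Mgp exceeded Spp1 in all 6 treated libraries and in untreated B-4.

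Within treated cells, the second comparison set the 3 doses of day 10 against those of day 5. Of the 8 members tested, 2 rose (Ibsp and Mepe) and 0 fell, against 0.863% and 0.161% of all 16794 features tested. Ibsp rose from a mean of 135 CPM (SD 86.4, n = 3) on day 5 to 629 CPM (SD 306, n = 3) on day 10, a log2 fold change of 2.23 (SE 0.49, adjusted p = 0.0476, edgeR). Mepe rose from 0.323 to 1.47 CPM, with a log2 fold change of 2.12 (SE 0.47, adjusted p = 0.0493, edgeR). Both were higher in all 3 libraries of day 10 than in any of day 5. Both calls were close to the threshold, and each was lost without the library at 100 or 200 μM on day 5 or that at 150 or 200 μM on day 10, with log2 fold changes of Ibsp between 1.93 and 2.04 and adjusted p between 0.0910 and 0.235 (edgeR).

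Spp1 and Mgp moved in opposite ways between the days by amounts under the fold limit. Spp1 was 0.72 higher on day 10 on the log2 scale (SE 0.16, adjusted p = 0.0479, edgeR), and Mgp was at -0.70 (SE 0.15, adjusted p = 0.0443, edgeR). For both genes the 3 libraries of one day did not overlap with those of the other. Bglap had a log2 fold change of 2.60 (SE 0.66, adjusted p = 0.0764, edgeR) and Bglap2 of 2.46 (SE 0.58, adjusted p = 0.0601, edgeR), and neither was called. Both were called by DESeq2, with adjusted p of 7.8e-04 and 2.1e-04. Both were also called by edgeR without the library at 100 μM on day 10, whose Bglap2 level of 0.827 CPM lay near those of day 5. Dmp1 was at 1.18 (SE 0.55, adjusted p = 0.300, edgeR) and Bglap3 at -0.31 (SE 0.66, adjusted p = 0.860, edgeR).

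Whether treatment acted differently on the 2 days was tested as an interaction, which rests on 1 library at 0 μM per day. Of the 8 members, 0 were called by edgeR at an adjusted p under 0.05, and 0.0119% of all features tested were called. At an unadjusted p under 0.05 there were 4 (Bglap2, Bglap, Dmp1 and Spp1), against 1395 of all 16794 features, and DESeq2 called 0 members. Relative to 0 μM of the same day, Spp1 was at -0.89 (SE 0.21) on day 5 and at -0.19 (SE 0.22) on day 10. Dmp1 was at -3.10 (SE 0.65) and -0.70 (SE 0.70), and Bglap2 at -0.91 (SE 0.78) and 2.19 (SE 0.90). Bglap was at 0.13 (SE 0.99) and 3.82 (SE 1.22), with a difference between the days of 3.69 (SE 1.54). The difference between the days was 0.70 for Spp1 (SE 0.31, adjusted p = 0.599), 2.40 for Dmp1 (SE 1.01, adjusted p = 0.572) and 3.10 for Bglap2 (SE 1.18, adjusted p = 0.536, all edgeR). Ibsp was at 7.64 (SE 1.13) on day 5 and at 9.52 (SE 1.22) on day 10, and Mgp at 3.08 (SE 0.26) and 2.73 (SE 0.25).

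A trend with dose from 100 to 200 μM was not detected. The slope per 50 μM, with day as a covariate, was tested for 7 members, and 0 passed an adjusted p of 0.05 in edgeR or in DESeq2, nor did any reach an unadjusted p of 0.05 in edgeR. Over all 16020 features tested in edgeR, 0% were called, 380 features had an unadjusted p under 0.05, and DESeq2 called 2. The slopes ranged from -0.08 (SE 0.11) for Spp1 to 0.75 (SE 0.45) for Bglap on the log2 scale. Ibsp, with a slope of 0.52 (SE 0.31), was highest at 150 μM on both days, although on day 10 the levels at 150 and 200 μM differed by little. With depth class as a covariate its slope was 0.13, and without 1 library each it ranged from 0.14 to 0.98. The slope of Bglap ranged from 0.079 (without 100 μM on day 10) to 1.24 (without 200 μM on day 10).

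Depth moved with several of these levels. The 3 treated libraries above 40000000 counts held more Ibsp than the shallower treated libraries of the same day, and also more Mepe, Bglap, Bglap2 and Dmp1. Since they were 150 μM on day 5 and 150 and 200 μM on day 10, dose and depth cannot be told apart. Within the deeper class, Ibsp stood at 0.668 CPM in 1 library at 0 μM and at a mean of 615 CPM in 3 treated libraries. Within the shallower class it stood at 0.854 CPM and 149 CPM. Mgp was 5.71 times and 10.3 times the level at 0 μM in the deeper and the shallower class, Dmp1 was at 0.288 and 0.181 of it, and Spp1 was at 0.796 and 0.632 of it. Bglap2 was at 2.90 times the level at 0 μM in the deeper class and at 0.820 of it in the shallower class. These ratios mix the days: the deeper class sets 0 μM of day 5 against 1 treated library of day 5 and 2 of day 10, and the shallower class sets 0 μM of day 10 against 2 of day 5 and 1 of day 10. From day 5 to day 10 in treated cells, Ibsp was 3.45 times as high in the deeper class and 3.24 times in the shallower class, and Bglap 5.48 and 2.04 times. With depth class as a covariate, Ibsp was at 8.41 against 0 μM (adjusted p = 5.1e-08) and at 1.75 between the days (adjusted p = 2.8e-04, edgeR).

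**Figure D5:**
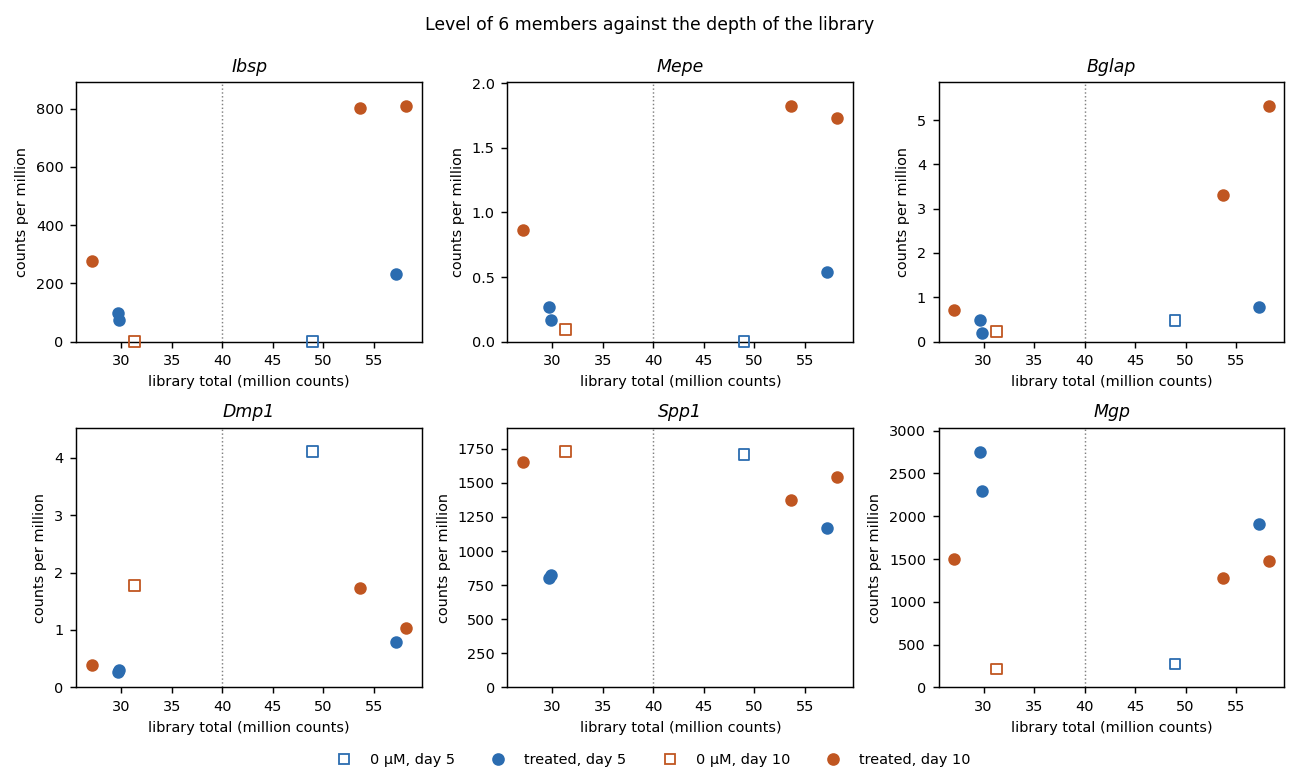
CPM of 6 members against the library total for the 8 libraries with a time, with squares for 0 μM and circles for treated cells, day 5 in blue and day 10 in orange, and a dotted line at the limit of 40000000 counts between the depth classes. Within each day, treated libraries to the right of the line lay above those to the left for Ibsp, Mepe, Bglap and Dmp1.

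Genes whose proteins act on the members or beside them were counted from lists chosen by function, and each count is read against the 13.4% and 5.98% of all features tested that rose and fell. Of the 9 enzymes that phosphorylate or cleave SIBLING proteins, 5 were tested, 1 rose and 1 fell. Ctsb, the lysosomal protease cathepsin B, rose by 1.31 (SE 0.15, adjusted p = 1.2e-04, edgeR), from 618 to 1542 CPM. Untreated B-4, however, held 2117 CPM of Ctsb, above every treated library. Fam20c, the kinase that phosphorylates secreted SIBLING proteins, fell by 1.14 on the log2 scale (SE 0.12, adjusted p = 7.1e-05, edgeR), from 70.9 to 33.0 CPM. Among receptors, 10 of the 11 genes on a list of integrin subunits and Cd44 were tested, 2 rose and 1 fell, with 4 lower where no fold limit was set. Itga8 rose from 7.67 to 81.7 CPM (log2 fold change 3.34, SE 0.20) and Itga9, whose integrin binds osteopontin at a site other than the RGD, from 4.37 to 25.4 CPM (2.42, SE 0.24). Itgb3, the β subunit of the vitronectin receptor that binds osteopontin, fell from 15.9 to 7.23 CPM (-1.18, SE 0.18), and all 3 had an adjusted p under 0.05 in edgeR. Without the day 5 library at 0 μM, 0 genes of either list were called lower. That fit compares only within day 10. The medians of the 2 lists were -0.35 and -0.14. Untreated B-4 lay within the range of treated cells for Itgb3, at 7.42 CPM, and outside it for Fam20c, Itga8 and Itga9.

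For the Gla proteins, 5 of 5 genes of the vitamin K cycle were tested and 0 were called by edgeR at the fold limit, with 1 higher and 1 lower without it, Vkorc1 at 0.75 and Aifm2 at -0.70. Ggcx, the γ-glutamyl carboxylase itself, had a log2 fold change of 0.06 (SE 0.09, adjusted p = 0.654, edgeR). Among 13 other Gla proteins, 8 were tested, 3 rose and 0 fell, with a median of 0.88. Gas6, a Gla protein that is a ligand of TAM receptor kinases, rose from 199 to 1988 CPM (log2 fold change 3.31, SE 0.23, adjusted p = 6.8e-06, edgeR). The other 2 that rose, F7 and F10, were at 0 CPM in both libraries at 0 μM and had means of 3.25 and 0.480 CPM in treated cells. These 2 had enough counts to be tested only through treated libraries, so a rise was the only change they could show. The median of 0.88 includes both.

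Among 11 genes of mineralization and the collagen matrix, 9 were tested, 4 rose and 1 fell, with a median of 0.22. Alpl, whose product frees phosphate for mineral, had between 0 and 2 counts at 0 μM and between 486 and 3460 counts in treated libraries. Smpd3, a sphingomyelinase needed for bone mineralization, rose from 4.10 to 27.2 CPM (log2 fold change 2.63, SE 0.30), and Sparc, osteonectin, from 1386 to 3612 CPM (1.30, SE 0.19, both with an adjusted p under 0.05 in edgeR). Col1a1 and Col1a2 were at 0.01 (SE 0.20) and 0.09 (SE 0.18). Of 7 osteocyte genes 5 were tested, 2 rose and 1 fell, where Irx5 was at 2.30 (SE 0.26) and Gja1, connexin 43, at -1.34 (SE 0.12). The other that rose, Sost, was at 0 CPM at 0 μM and on day 5, and at most 0.714 CPM in treated cells of day 10. Sost, too, could be tested only through treated libraries and could only rise. Under the alternatives, between 1 and 2 genes of this list were called higher. Of 13 osteoblast transcription factors, all were tested, 4 rose and 0 fell. Sp7 (osterix) rose from 5.53 to 81.5 CPM (log2 fold change 3.74, SE 0.34), Msx1 from 4.40 to 16.3 CPM (1.79, SE 0.28) and Runx2, whose factor binds osteocalcin and bone sialoprotein promoters, from 90.9 to 223 CPM (1.27, SE 0.12, all with an adjusted p under 0.05 in edgeR). The tests of Sparc and Sparcl1 were the only ones possible among 7 other secretory calcium-binding phosphoproteins, relatives of the SIBLING genes. Sparcl1 rose by 1.71 (SE 0.27, adjusted p = 7.1e-04, edgeR). Untreated B-4 lay within the range of treated cells for Sparc (2843 CPM), Gja1 (112 CPM) and Msx1 (9.97 CPM). The same held for Runx2 (194 CPM) and Sparcl1 (123 CPM). For Alpl, Smpd3, Irx5 and Sp7, B-4 lay below every treated library.

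Genes next to the members in the genome varied. Sparcl1, which rose, is also the nearest annotated protein-coding gene before the SIBLING cluster, 56979 bases away. Pkd2 (polycystin 2), 18400 bases after Spp1, had a log2 fold change of -0.13 (SE 0.11, adjusted p = 0.391, edgeR). Next to the osteocalcin genes, Pmf1, a kinetochore gene, fell by 1.67 on the log2 scale (SE 0.13, adjusted p = 1.5e-05, edgeR), from 32.8 to 10.5 CPM, and Paqr6 was too low to be tested. Next to Mgp, Erp27 rose by 1.69 (SE 0.47, adjusted p = 0.0158, edgeR) but at a mean of only 0.515 CPM in treated cells, and Art4 was too low to be tested. Untreated B-4 lay above every treated library for Erp27 (0.994 CPM) and below every treated library for Pmf1 (7.09 CPM).

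Markers of other cell types were counted because several members are also made outside bone, Spp1 by macrophages and Mgp by chondrocytes and smooth muscle. Of 8 macrophage and osteoclast markers 3 were tested and 1 rose, Ctsk (cathepsin K), from 70.4 to 213 CPM. The summed level of the 8 was between 71.2 and 73.3 CPM at 0 μM and between 144 and 316 CPM in treated cells, almost all of it Ctsk. Adgre1, Ptprc, Acp5, Calcr and Ocstamp had means under 0.12 CPM in treated cells and were at 0 CPM at 0 μM. Of 7 chondrocyte markers 5 were tested and 1 rose, Comp, to a mean of 5.23 CPM. Sox9, the chondrocyte transcription factor, went from 38.9 to 76.3 CPM (log2 fold change 0.96, SE 0.16, adjusted p = 0.00118, edgeR), just under the fold limit. Their sum was between 92.2 and 105 CPM at 0 μM and between 87.2 and 168 CPM in treated cells, and Acan was at 0 CPM at 0 μM. Of 5 smooth muscle markers 4 were tested and 1 rose, Myh11, to 0.946 CPM. Their sum, mostly Acta2, was between 903 and 1411 CPM at 0 μM and between 920 and 1936 CPM in treated cells. Of 5 adipocyte markers, 3 were tested and 0 were called by edgeR, with a sum of at most 4.32 CPM. The part of these cell types in the levels of the members was not tested.

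The genes whose log2 CPM over the 10 libraries was most like that of a member were named for the 3 members with a mean of at least 5 CPM, among 10393 genes. These values describe likeness only, since the 10 libraries share treatment and depth classes. For Ibsp they were Extl1 (Pearson r 0.993, Spearman rho 0.988), Tmem229b (0.992, 0.976) and Bpifb1 (0.991, 0.997). Extl1 stood at a mean of 0.658 CPM at 0 μM, 10.9 CPM in treated cells on day 5 and 24.2 CPM on day 10. Bpifb1 stood at 0 CPM, 4.70 CPM and 31.8 CPM. For Mgp they were Rassf2 (r 0.979, rho 0.939), Arl4a (0.978, 0.891) and Mab21l1 (0.977, 0.915), and for Spp1 Xrcc5 (0.959, 0.915), Insig2 (0.957, 0.915) and Sos2 (0.956, 0.952). Other members were not among them. Over the 8 libraries with a time, none of these 9 genes stayed among the 3 most like, and their ranks there ran from 7 to 47.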

How the data were processed

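Polyadenylated RNA was captured on oligo(dT) beads and sequenced from TruSeq libraries, per the labels. The authors deposited 1 table with a whole-number read count and an FPKM value (fragments scaled to transcript length and to the depth of the library) for each feature in each of the 10 libraries. The submitters' processing notes name HISAT2 2.0.4 and GATK 3.2-2 without a role, and the counting program, strand setting, genome build and annotation are not given in the sources used here. A further 39 columns hold the authors' own comparisons and were not used. Libraries were grouped by the dose and day in the labels.

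Counts were tested in edgeR 4.0.16 (R 4.3.3) with TMM normalisation, filterByExpr, the quasi-likelihood test and Benjamini-Hochberg adjustment over all features tested. Treated cells were compared with 0 μM with day as a covariate, and the days were compared in a model of 4 groups. Log2 CPM used a prior count of 2. The fitting script was tested on simulated counts. The alternatives were DESeq2 1.42.0, limma 3.58.1 on log2(FPKM + 1), other scalings and filters, other control libraries and each library left out in turn. Depth class, split at 40000000 counts, was added as a covariate after seeing the data. Sequences were read from RefSeq promoter windows, and motifs were searched with Python 3.11.15.

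The members, gene lists and tests were chosen with earlier results of these data known. All members were named, and beside them the nearest protein-coding genes, the 3 genes most like each member with a mean of at least 5 CPM, and up to 3 called genes per list with the largest log2 fold change and a mean of at least 5 CPM. Other genes (Col1a1, Col1a2, Ggcx, Vkorc1, Aifm2, F7, F10, Sost, Comp, Sox9, Acan, Acta2, Myh11 and the low macrophage markers) were named after their values were seen. The same holds for Col2a1, Col9a1, Col10a1, Csf1r and Cd68.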

Additional observations from a re-analysis of the deposited data

Results flagged for a closer look

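The 2 untreated libraries, which have no time in the labels, held in 1 or both of them more of several members than both libraries at 0 μM, and they belong to no comparison. Ibsp stood at 2.37 CPM in A-5 and at 9.04 CPM in B-4, against at most 0.854 CPM at 0 μM. Mgp stood at 418 CPM in A-5 and at 2262 CPM in B-4, and Spp1 at 3198 CPM and 1901 CPM. Dmp1 stood at 11.1 CPM in A-5, the highest level of it in the 10 libraries, while B-4 held 0.431 CPM, less than either library at 0 μM. Of the osteocalcin genes, Bglap stood at 2.70 CPM in A-5 and 0.762 CPM in B-4, Bglap2 at 4.96 CPM in A-5 and Bglap3 at 0.855 CPM in A-5.

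Bglap2 lay below 0 μM in all 3 treated libraries of day 5 and above it in all 3 of day 10. The difference of the treatment effect between the days was 3.10 on the log2 scale (unadjusted p = 0.0260, adjusted p = 0.536, edgeR), and at 100 μM on day 10 the level of 0.827 CPM was barely above the 0.822 CPM at 0 μM. The check for a library that stands apart within the 6 treated libraries, made on log2 CPM, marked 0 of the 9 members.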

How the results depend on the processing

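Of 461 values for single members under an alternative, 418 kept their direction and their side of the threshold, 16 lost it, 17 gained it and 10 changed direction. Kept were 141 of 155 values against 0 μM and 106 of 126 between the days. The remaining values belong to the interaction and the trend, where no member was called in the main fit. Ibsp was called higher against 0 μM under every alternative run. Where the 2 untreated libraries replaced those at 0 μM, 1 member was called higher and 2 lower, and Bglap2 was at -0.47. Against 0 μM, 0 members were called lower with a filter of 10 counts in every library (which left 4 members to test) or with limma, and 2 without a fold limit. Without 1 library each, between 0 and 1 members were called lower, Bglap2 ranged from -0.92 to 2.19 and Bglap3 from -0.85 to 0.86.

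Between the days, 4 members were called higher with DESeq2 or with a filter of 1 count in total, 1 with the filter of 10 counts or with treated libraries only, 0 with limma, and between 0 and 4 without 1 library each. Without a fold limit 1 member was called lower, and Bglap3 ranged from -0.69 to 0.27 without 1 library each. With dose as a block in the 6 treated libraries, which pairs the days by dose, Ibsp was called at 2.25 (adjusted p = 0.00432) and Bglap2 at 2.30 (adjusted p = 0.0204, edgeR), and the fit gave no value for Mepe or Bglap. The interaction changed direction for Ibsp (-0.10) and Mgp (0.020) with depth class as a covariate and for Mepe (0.51) with limma. For the trend with dose, 1 member was called with a filter of 1 count and 3 with 0 μM added as dose 0, where Dmp1 was at -0.46, and the slope of Mgp ranged from -0.15 to 0.11 without 1 library each. The causes were not tested.

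Over all features, between 526 and 3790 were called higher and between 453 and 3490 lower against 0 μM. Ordered by CPM in place of FPKM, 5 of 9 members kept their place at 0 μM and 7 of 9 in treated cells on each day. Osteocalcin, Mepe and Dspp rest on few counts, which limits what could be seen of them.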
